A study of Homo sapiens with 6 samples.

Results

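The 10 genes described here encode ID proteins (ID1, ID2 and ID3), SMAD proteins (SMAD2, SMAD3, SMAD4, SMAD6 and SMAD7) and type I receptors (BMPR1A and TGFBR1) of BMP and TGF-beta signalling. They were taken by name, and all 10 were found among the 16949 genes of the table. RNA-seq was done on CWR-R1 cells, an established human prostate cancer cell line that the labels call castration-resistant, meaning that it grows without testicular androgen. There were 3 SOX2-KO libraries, labelled SOX2 negative, and 3 Control libraries, labelled SOX2 positive and called untreated in their titles. SOX2 is a transcription factor of stem cells, and the comparison asks what its loss does to the transcriptome of these cells. The sources used here do not say by what method SOX2 was removed, if the cells are 1 clone, or if each library is a culture of its own. The p-values therefore cover the spread between these 6 libraries alone, and that spread may be technical.

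BMP and TGF-beta are secreted ligands that bring together type II and type I serine/threonine kinase receptors on the cell surface. Type I receptors phosphorylate receptor SMADs, SMAD2 and SMAD3 for TGF-beta and activin and SMAD1, SMAD5 and SMAD9 for BMP, which join the shared partner SMAD4 and act on genes in the nucleus. ID1, ID2 and ID3 are well known genes switched on by BMP, and SMAD6 and SMAD7 are inhibitory SMADs that are themselves induced and dampen the pathway. ID proteins carry a helix-loop-helix region but no DNA-binding region, and they hold E proteins such as TCF3, TCF4 and TCF12 away from DNA. In normal prostate epithelium TGF-beta is known as a brake on growth.

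Values are deposited CPM (counts scaled to a library total of 1000000), and each group's mean is given ± SD with n = 3. A gene is called higher or lower where its Benjamini-Hochberg adjusted p from limma over all 15927 tested genes, those averaging 1 CPM or more, is under 0.05. Log2 fold changes, SOX2-KO over Control, are on the log2(CPM + 1) scale with their standard error, which understates the change of low genes, and folds are ratios of mean CPM. CPM is not divided by transcript length, so levels of different genes are not compared. The libraries held an estimated 20717773 to 25739714 reads on the listed genes. SOX2 mRNA was at 4.36 ± 0.467 CPM in SOX2-KO and 55.1 ± 0.771 CPM in Control, 7.91% of the Control level (log2 -3.39 ± 0.08; limma adjusted p = 1.65e-08; exact two-sided permutation p = 0.1, the smallest that 3 against 3 libraries allow). Mitochondrial transcripts took 1.87%, 1.68% and 3.44% of CPM in SOX2-KO replicates 1, 2 and 3, against 3.23% to 3.45% in Control.

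All 12 prostate luminal markers examined were measured, with a summed level of 4404 to 4632 CPM in SOX2-KO and 3907 to 3977 CPM in Control, with 7 markers called higher (KRT8 among them), 3 lower (KRT18, CDH1 and EPCAM) and 2 not called. Of markers of other cells, 1 of 6 basal markers (ITGA6), 4 of 10 fibroblast and smooth muscle markers and 1 of 7 endothelial and immune markers (VWF) had a value. The fibroblast and smooth muscle markers summed to 8.94 to 9.57 CPM in SOX2-KO and 8.07 to 9.796 CPM in Control, with ACTA2 called higher (log2 0.54), LUM called lower (log2 -0.91) and 2 not called. VWF, the von Willebrand factor gene of endothelium, was at 19.9 to 21.2 CPM in SOX2-KO and 2.96 to 4.08 CPM in Control. ITGA6 was at 6.49 to 7.70 CPM in SOX2-KO and 9.83 to 10.8 CPM in Control. The part of these markers in the results below was not tested. In such bulk libraries, fewer cells that express a gene and less RNA per cell cannot be told apart.

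Of the 10 genes, 7 were called, 4 higher and 3 lower, beside 57.8% of all tested genes called, 25% higher and 32.9% lower. The split over all genes depended on scaling: 3976 rose and 5234 fell as deposited, 4575 rose and 4505 fell with median-ratio scaling, and 4670 rose and 4498 fell with quantile normalisation. The share of the 10 called is near the background and is no result about these genes. The median log2 fold change of the 10 was -0.01, against -0.06 over all tested genes. In 7 of the 10 the SOX2-KO values did not overlap the Control values, beside 64.5% of all tested genes; 3 lay higher, beside 28.2%, and 4 lower, beside 36.3%. The log2 fold change of ID3 was larger than that of 99.3% of tested genes and that of ID1 larger than 97.7%. In absolute size the other 8 lay between BMPR1A, whose change exceeded that of 14.7% of tested genes, and SMAD3, whose change exceeded that of 69.7%.

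**Figure D1:**
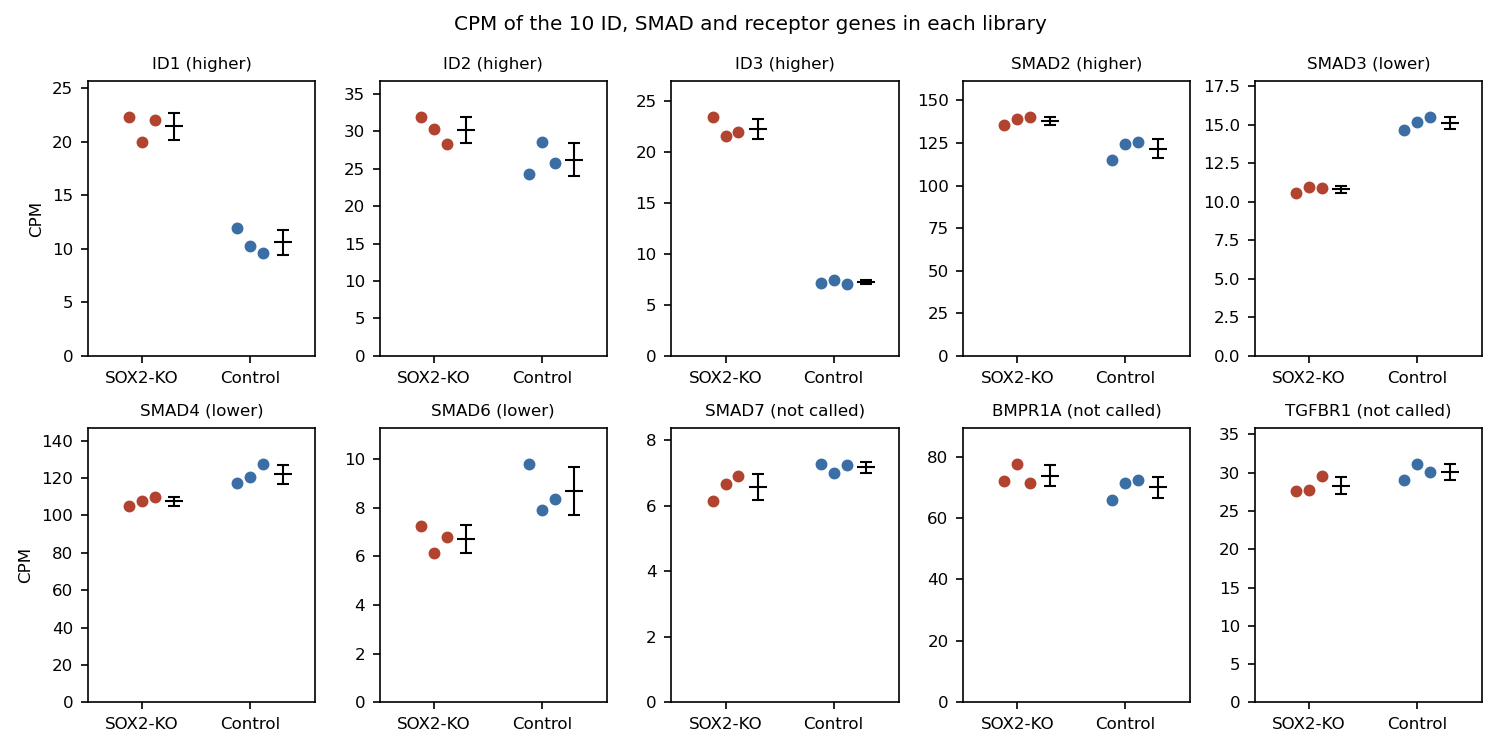
CPM (vertical axes, from 0) of each of the 10 genes in the 3 SOX2-KO and 3 Control libraries; points are libraries and the bar beside them is the mean ± SD. ID1 and ID3 lay far above Control in every SOX2-KO library, whereas the group means of the other genes lay closer together.

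**Figure D2:**
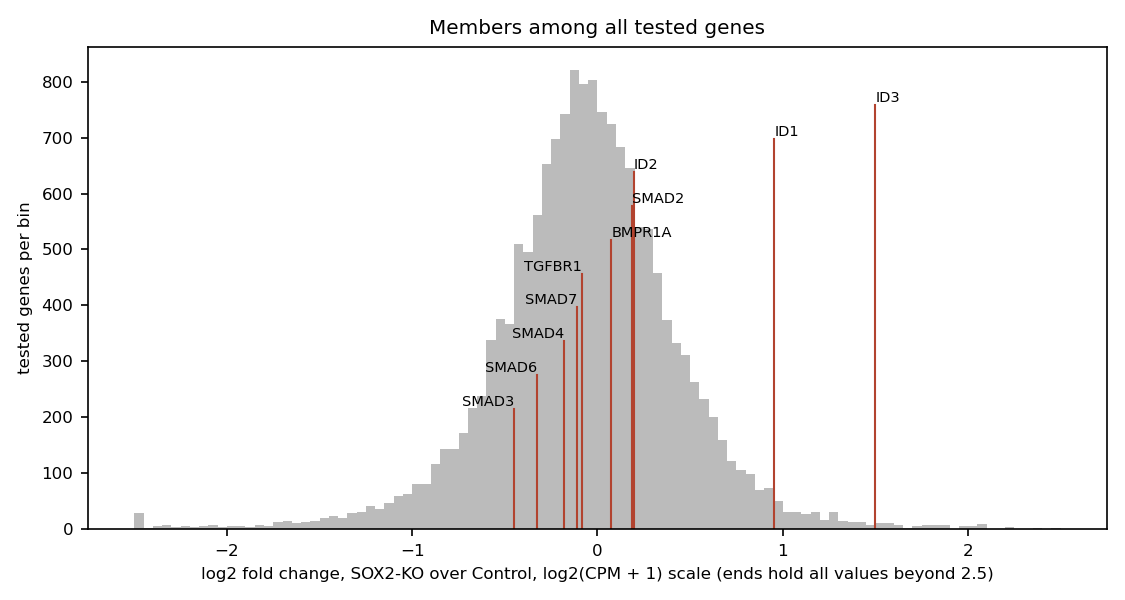
Histogram of log2 fold changes (SOX2-KO over Control, horizontal axis) of the 15927 tested genes, in genes per bin, with a line for each of the 10 genes; line heights only separate the names, and the end bins hold all values beyond. ID1 and ID3 lay in the upper tail, at 0.96 and 1.5, and the other 8 between -0.45 and 0.20.

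Promoter sequence was examined next, since ID1, ID2 and ID3 were called in the same direction and SMAD6 and SMAD7 are known feedback targets of SMADs. The ID2 groups overlapped, however, and its call was lost when some of the libraries were left out. ID4, an ID gene outside the 10, was called lower (log2 -0.20, limma adjusted p = 0.00158). RefSeq windows (GRCh38.p14) of the 250 bases before a RefSeq start were found for all 10 genes, 24 windows in all. They are compared with all 35116 such windows. Shown are the ID1 window, for the ID gene with the larger rise of the pair whose values no other identifier shares, the SMAD6 window, for the gene with a palindromic SMAD box, and 1 of the SMAD3 windows, for the GC-rich SMAD elements in it. The motifs were chosen after the data were seen. Capitals mark, on either strand, the palindromic SMAD box GTCTAGAC, the SMAD box CAGAC, the GC-rich SMAD element GGCGCC, the SOX cores ACAATG and ACAAAG, the TATA box TATAAA and the CCAAT box CCAAT, of which none contains another; the capitals in ID1 close to its start are 2 overlapping TATAAA matches, 1 per strand.
ID1 (chr20:31605039-31605288, plus strand): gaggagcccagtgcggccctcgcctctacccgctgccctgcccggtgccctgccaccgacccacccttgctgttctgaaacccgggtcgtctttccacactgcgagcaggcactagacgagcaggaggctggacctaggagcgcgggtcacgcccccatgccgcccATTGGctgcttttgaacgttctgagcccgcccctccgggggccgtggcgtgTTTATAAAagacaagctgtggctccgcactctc
SMAD6 (chr15:66701986-66702235, plus strand): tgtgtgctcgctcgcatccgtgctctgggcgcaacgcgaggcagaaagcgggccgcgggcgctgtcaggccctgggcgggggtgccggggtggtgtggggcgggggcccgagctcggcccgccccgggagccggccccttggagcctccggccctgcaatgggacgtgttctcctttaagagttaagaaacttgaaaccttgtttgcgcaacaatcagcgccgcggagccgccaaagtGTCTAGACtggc
SMAD3 (chr15:67065352-67065601, plus strand): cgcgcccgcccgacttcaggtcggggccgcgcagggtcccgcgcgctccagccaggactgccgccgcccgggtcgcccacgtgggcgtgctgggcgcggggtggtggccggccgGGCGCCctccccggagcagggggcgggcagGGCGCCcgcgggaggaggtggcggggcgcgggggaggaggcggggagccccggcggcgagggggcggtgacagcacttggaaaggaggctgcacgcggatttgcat

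The palindrome GTCTAGAC, in 0.182% of all windows, was found in the window of SMAD6, beginning 12 bases before the start, and in none of the other members. CAGAC, in 38% of all windows, was found for ID3, SMAD3, SMAD7 and TGFBR1, and GGCGCC, in 16.4%, for SMAD2, SMAD3, SMAD4 and TGFBR1. Of the SOX cores, ACAATG, in 9.29% of all windows, was in no member window and ACAAAG, in 13.7%, was in those of TGFBR1. The ID1 window held TATAAA, present in 10.7% of all windows, and CCAAT, present in 32%. CCAAT was found for ID1, ID2, SMAD2, SMAD3, SMAD4 and TGFBR1, and no motif searched was found for ID1, ID2 and ID3 alike. In the annotation used here all 250 bases of the ID3 window and 229 of those of ID2 were exonic. The same held in full for a window each of SMAD2, SMAD7 and BMPR1A. A motif absent from such a window says little about sequence further upstream. Several genes have more than 1 window, so they had more chances of a match, and a match is a description of the letters.

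ID3, a BMP-responsive inhibitor of E proteins, had the largest change of the 10. It was at 23.4, 21.6 and 21.99 CPM in SOX2-KO, against 7.21, 7.42 and 7.10 CPM in Control. All 3 SOX2-KO libraries were far above the 3 Control libraries, which lay close together. The means were 22.3 ± 0.982 CPM in SOX2-KO and 7.24 ± 0.167 CPM in Control, a 3.08-fold rise (log2 1.5 ± 0.07; limma adjusted p = 8.65e-07). ID3 (ENSG00000117318) lies on chromosome 1, positions 23557918 to 23559794 of GRCh38, minus strand. Another identifier, ENSG00000283060, which the annotation used here does not place, had the same 6 values, so the level of ID3 is uncertain. The fold of ID3 is unchanged by the sharing only if both identifiers stand for the same gene, which was not settled. Summed over both identifiers, the values were 46.9, 43.1 and 44.0 CPM in SOX2-KO, against 14.4, 14.8 and 14.2 CPM in Control (log2 1.56, limma adjusted p = 2.22e-07). Because the rows are identical, the sum scales all 6 values alike and leaves the ratio of means as it was. The log2 value moved only because 1 CPM is added before the logarithm, so the sum cannot settle the doubt about the fold. This comparison was added after seeing the data.

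ID1, a BMP-responsive inhibitor of E proteins like ID3, also rose. It was at 22.3, 19.9 and 22.1 CPM in SOX2-KO, against 11.9, 10.2 and 9.65 CPM in Control. The lowest SOX2-KO library stood well above the highest Control library. The means were 21.4 ± 1.295 CPM in SOX2-KO and 10.6 ± 1.17 CPM in Control, a 2.02-fold rise (log2 0.96 ± 0.09; limma adjusted p = 3.03e-05). ID1 (ENSG00000125968) lies on chromosome 20, positions 31605283 to 31606515, plus strand. Its lowest library held an estimated 200 reads for the gene.

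ID2, the third inhibitor, changed far less. It was at 31.8, 30.3 and 28.3 CPM in SOX2-KO, against 24.3, 28.6 and 25.8 CPM in Control. The lowest SOX2-KO value was under the highest Control value, so the groups overlapped. The means were 30.1 ± 1.79 CPM in SOX2-KO and 26.2 ± 2.18 CPM in Control (log2 0.20 ± 0.07; limma adjusted p = 0.0483). The call ended without SOX2-KO replicate 1 (adjusted p = 0.129) or 2 (0.107) and without Control replicate 1 (0.149) or 3 (0.116), and with the median shift of the genes within 5 Mb subtracted in each library the sign turned (log2 -0.15, adjusted p = 0.126), with the limma adjusted p between 0.0141 and 0.149 over the alternatives. ID2 (ENSG00000115738) lies on chromosome 2, positions 8678845 to 8684453, plus strand, and shares 1.72% of its exonic bases with the antisense gene ID2-AS1, which was at 0.911 to 1.09 CPM in SOX2-KO and 0.965 to 1.65 CPM in Control.

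SMAD2 and SMAD3, the receptor SMADs of TGF-beta and activin, went in opposite directions, and neither call held with the shift of neighbouring genes subtracted (SMAD2 log2 0.05, limma adjusted p = 0.385; SMAD3 -0.18, 0.0609). SMAD3 was at 10.6, 10.97 and 10.9 CPM in SOX2-KO, against 14.7, 15.2 and 15.5 CPM in Control. All 3 SOX2-KO libraries were lower, with little spread in either group (10.8 ± 0.216 CPM in SOX2-KO and 15.1 ± 0.405 CPM in Control; log2 -0.45 ± 0.07; limma adjusted p = 6.48e-04). SMAD2 was at 136, 139 and 140.04 CPM in SOX2-KO, against 115, 124 and 125 CPM in Control. The groups did not overlap, but the gap between the highest Control and the lowest SOX2-KO library was about as wide as the range in Control (138 ± 2.34 CPM in SOX2-KO and 122 ± 5.66 CPM in Control; log2 0.18 ± 0.04; limma adjusted p = 0.00605). Within a library the ratio of SMAD2 to SMAD3 CPM, in which library scaling cancels, was 12.8 ± 0.0925 in SOX2-KO and 8.03 ± 0.178 in Control. SMAD2 (ENSG00000175387) lies on chromosome 18, positions 47808957 to 47931146, minus strand, and SMAD3 (ENSG00000166949) on chromosome 15, positions 67063763 to 67195195, plus strand. The antisense gene AC087482.1, which had no values here, overlaps 1.997% of the exonic bases of SMAD3.

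SMAD4, the partner shared by BMP and TGF-beta SMADs, fell slightly. It was at 105, 108 and 109.7 CPM in SOX2-KO, against 117, 121 and 128 CPM in Control. The highest SOX2-KO library was below the lowest Control library. The means were 108 ± 2.33 CPM in SOX2-KO and 122 ± 5.16 CPM in Control (log2 -0.18 ± 0.04; limma adjusted p = 0.00653). The ratio of SMAD2 to SMAD4 CPM was 1.28 ± 0.00705 in SOX2-KO and 0.997 ± 0.0279 in Control. SMAD4 (ENSG00000141646) lies on chromosome 18, positions 51028394 to 51085045, plus strand. An exon of AC091551.1, a gene on the same strand that had no values here, covers 7.37% of the exonic bases of SMAD4.

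Neither inhibitory SMAD gene was called higher. SMAD6, which mainly restrains BMP signalling, was at 7.24, 6.12 and 6.799 CPM in SOX2-KO, against 9.796, 7.898 and 8.35 CPM in Control. The groups did not overlap, with the widest relative spread of the SMADs in Control (6.72 ± 0.568 CPM in SOX2-KO and 8.68 ± 0.991 CPM in Control; log2 -0.32 ± 0.11; limma adjusted p = 0.0307). The SMAD6 call ended without SOX2-KO replicate 2 (adjusted p = 0.1004) or 3 (0.0514), without Control replicate 1 (0.109) or 3 (0.0572), with median-ratio scaling (0.0577) and with quantile normalisation (0.0736), with adjusted p between 0.0276 and 0.739 over the alternatives. SMAD7, which restrains both branches, was at 6.15, 6.66 and 6.92 CPM in SOX2-KO, against 7.28, 6.99 and 7.24 CPM in Control. SMAD7 was not called (log2 -0.11, 95% interval -0.32 to 0.10; limma adjusted p = 0.336), although its groups did not overlap. Both rested on few reads, with an estimated 135 in the lowest library for each, beside 147 for ID3. SMAD6 (ENSG00000137834) lies on chromosome 15, positions 66702228 to 66782848, plus strand, and SMAD7 (ENSG00000101665) on chromosome 18, positions 48919853 to 48952052, minus strand.

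Neither type I receptor gene was called. BMPR1A, a receptor for BMP, was at 72.1, 77.6 and 71.5 CPM in SOX2-KO, against 65.98, 71.5 and 72.4 CPM in Control. Its groups overlapped (73.7 ± 3.41 CPM in SOX2-KO and 69.95 ± 3.46 CPM in Control; log2 0.08, 95% interval -0.05 to 0.20; limma adjusted p = 0.255). TGFBR1, the type I receptor for TGF-beta, was at 27.6, 27.7 and 29.6 CPM in SOX2-KO, against 29.02, 31.2 and 30.1 CPM in Control. Its groups overlapped as well (28.3 ± 1.096 CPM in SOX2-KO and 30.1 ± 1.07 CPM in Control; log2 -0.09, 95% interval -0.22 to 0.04; limma adjusted p = 0.233). BMPR1A (ENSG00000107779) lies on chromosome 10, positions 86756601 to 86932838, plus strand, and TGFBR1 (ENSG00000106799) on chromosome 9, positions 99104038 to 99154192, plus strand.

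SMAD3, SMAD6, SMAD2 and ID2 changed in the direction of the genes around them, and SMAD4 and SMAD7 did not. Genes within 5 Mb of SMAD3 and SMAD6, which lie close together on chromosome 15, were shifted by -0.27 each (log2; 76 and 75 neighbours), and of the 76 neighbours of SMAD3 44 were called lower and 9 higher. Around SMAD2, SMAD4 and SMAD7 on chromosome 18 the neighbours were shifted by 0.13, 0.20 and 0.19, and around ID2 by 0.35. With the neighbours' shift subtracted in each library, SMAD6 was at log2 -0.05 (limma adjusted p = 0.739) and, like SMAD2 and SMAD3, not called. SMAD4 and SMAD7 lay below the median shift of their neighbours, at -0.38 (adjusted p = 1.36e-04) and -0.30 (0.023), and both were called lower. Still, 22.9% of the 35 neighbours of SMAD4 and 22.6% of the 31 of SMAD7 had a smaller log2 fold change. TGFBR1 turned to 0.14 (adjusted p = 0.0725) and BMPR1A was at 0.13 (0.0504), neither called.

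ID1 and ID3 did not share the shift of their surroundings. The 72 neighbours of ID1 were shifted by -0.20, and ID1 was at log2 1.16 with that subtracted (limma adjusted p = 8.26e-06). The 115 neighbours of ID3 were shifted by -0.04, and ID3 was at 1.54 (adjusted p = 8.05e-07). The log2 fold change of ID3 was above that of all 115 neighbours and that of ID1 above 98.6% of its 72. With the subtraction 4 of the 10 genes were called, 2 higher and 2 lower, beside 54% of all tested genes, 27.3% higher and 26.8% lower. The part of chromosomal position in these results was not tested further.

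**Figure D3:**
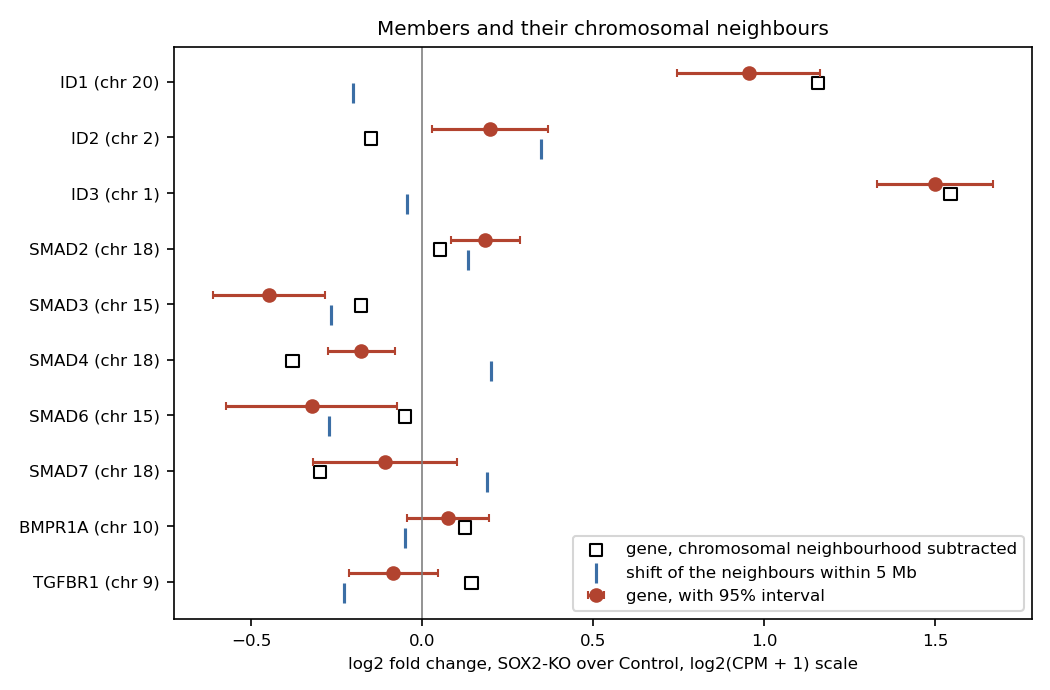
Log2 fold change (SOX2-KO over Control, log2(CPM + 1) scale, horizontal axis) of each of the 10 genes with its 95% interval (filled circles), the shift of the tested genes within 5 Mb (vertical ticks) and the gene with that shift subtracted (open squares). ID1 and ID3 stayed at 1.16 and 1.54, while SMAD6, at -0.32, lay near the -0.27 of its neighbours and SMAD3, at -0.45, below the -0.27 of its own.

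Of 27 listed ligand genes of the TGF-beta, BMP and activin families 13 were tested: 4 rose, 7 fell and 2 were not called (median log2 -0.39, against -0.06 for all tested genes), beside 57.8% of all tested genes called, 25% higher and 32.9% lower. With the neighbours' shift subtracted 3 rose and 6 fell. BMP7 was at 13.96, 16.96 and 17.2 CPM in SOX2-KO, against 31.3, 30.3 and 26.7 CPM in Control (log2 -0.84 ± 0.10; limma adjusted p = 8.05e-05). With its neighbours' shift of -0.27 subtracted BMP7 was at log2 -0.57. INHBB, the beta-B subunit of activin and inhibin, fell to 99.3 ± 2.64 CPM in SOX2-KO, against 130.2 ± 2.96 CPM in Control (log2 -0.39; adjusted p = 4.22e-05). BMP2, named after its values were seen, was under the filter and untested, at 0, 0.136 and 0.0777 CPM in SOX2-KO, against 2.11, 1.501 and 1.40 CPM in Control. The SOX2-KO values of BMP2 were at or near the level that 3 reads give in a library (0.117 to 0.145 CPM).

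Ligand genes that rose included TGFB1, which encodes TGF-beta 1, at 6.83, 5.39 and 5.52 CPM in SOX2-KO, against 4.39, 4.50 and 3.86 CPM in Control (log2 0.39 ± 0.12; limma adjusted p = 0.0202), and was at log2 0.66 with its neighbours' shift subtracted. The TGFB1 call ended without SOX2-KO replicate 1 (adjusted p = 0.0667) or Control replicate 3 (0.0713), with adjusted p between 0.00154 and 0.0713 over the alternatives. BMP1, a protease that cleaves procollagen and the BMP antagonist chordin and is no BMP ligand in function, rose to 23.3 ± 1.87 CPM in SOX2-KO, against 15.7 ± 1.21 CPM in Control (log2 0.54; adjusted p = 5.24e-04). Its call ended with the neighbours' shift of 0.43 subtracted (log2 0.11; adjusted p = 0.308; between 2.87e-04 and 0.308 over the alternatives). AMH was at 27.4 ± 6.27 CPM in SOX2-KO and 28.8 ± 2.70 CPM in Control, and TGFB2 at 1.41 ± 0.258 and 1.35 ± 0.273 CPM in the same groups, both not called.

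Among the other receptors, TGFBR2 and TGFBR3 changed most and in opposite directions. TGFBR2, the type II receptor that binds TGF-beta and activates TGFBR1, was at 10.4, 10.9 and 10.1 CPM in SOX2-KO, against 2.47, 2.37 and 2.22 CPM in Control. TGFBR3, the co-receptor betaglycan that presents TGF-beta to TGFBR2 and also binds inhibin, was at 6.02, 5.25 and 5.33 CPM in SOX2-KO, against 26.4, 26.4 and 26.5 CPM in Control. TGFBR2 thus rose 4.45-fold (log2 1.77 ± 0.10; limma adjusted p = 1.55e-06) and TGFBR3 fell by 2.07 on the log2 scale (± 0.08; adjusted p = 2.31e-07), while TGFBR1 was not called. The ratio of TGFBR2 to TGFBR3 CPM within a library was 1.90 ± 0.172 in SOX2-KO and 0.0891 ± 0.00503 in Control. Genes within 5 Mb of TGFBR2 and TGFBR3 were shifted by 0.21 and -0.17.

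Of 14 listed other receptors and co-receptors 12 were tested, of which 2 rose, 5 fell and 5 were not called (median log2 -0.16), a share called near the 57.8% of all tested genes. With the neighbours' shift subtracted 4 rose and 6 fell. ACVR1B, a type I receptor for activin, rose to 82.5 ± 0.444 CPM in SOX2-KO, against 69.3 ± 2.12 CPM in Control (log2 0.25; limma adjusted p = 7.15e-04). ACVR2A, a type II receptor for activin, fell to 15.2 ± 0.627 CPM in SOX2-KO, against 21.8 ± 1.49 CPM in Control (log2 -0.49; adjusted p = 4.59e-04), and was at -0.22 with its neighbours' shift subtracted. BMPR1B, a type I receptor for BMP like BMPR1A, was at 38.2 ± 2.22 CPM in SOX2-KO and 41.2 ± 2.69 CPM in Control and was not called, but was at -0.16 (adjusted p = 0.0468) with its neighbours' shift subtracted. RGMB, a BMP co-receptor, was at 61.1 ± 2.41 CPM in SOX2-KO and 62.2 ± 1.91 CPM in Control, not called either, but was at 0.19 (adjusted p = 0.0201) with that subtraction.

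**Figure D4:**
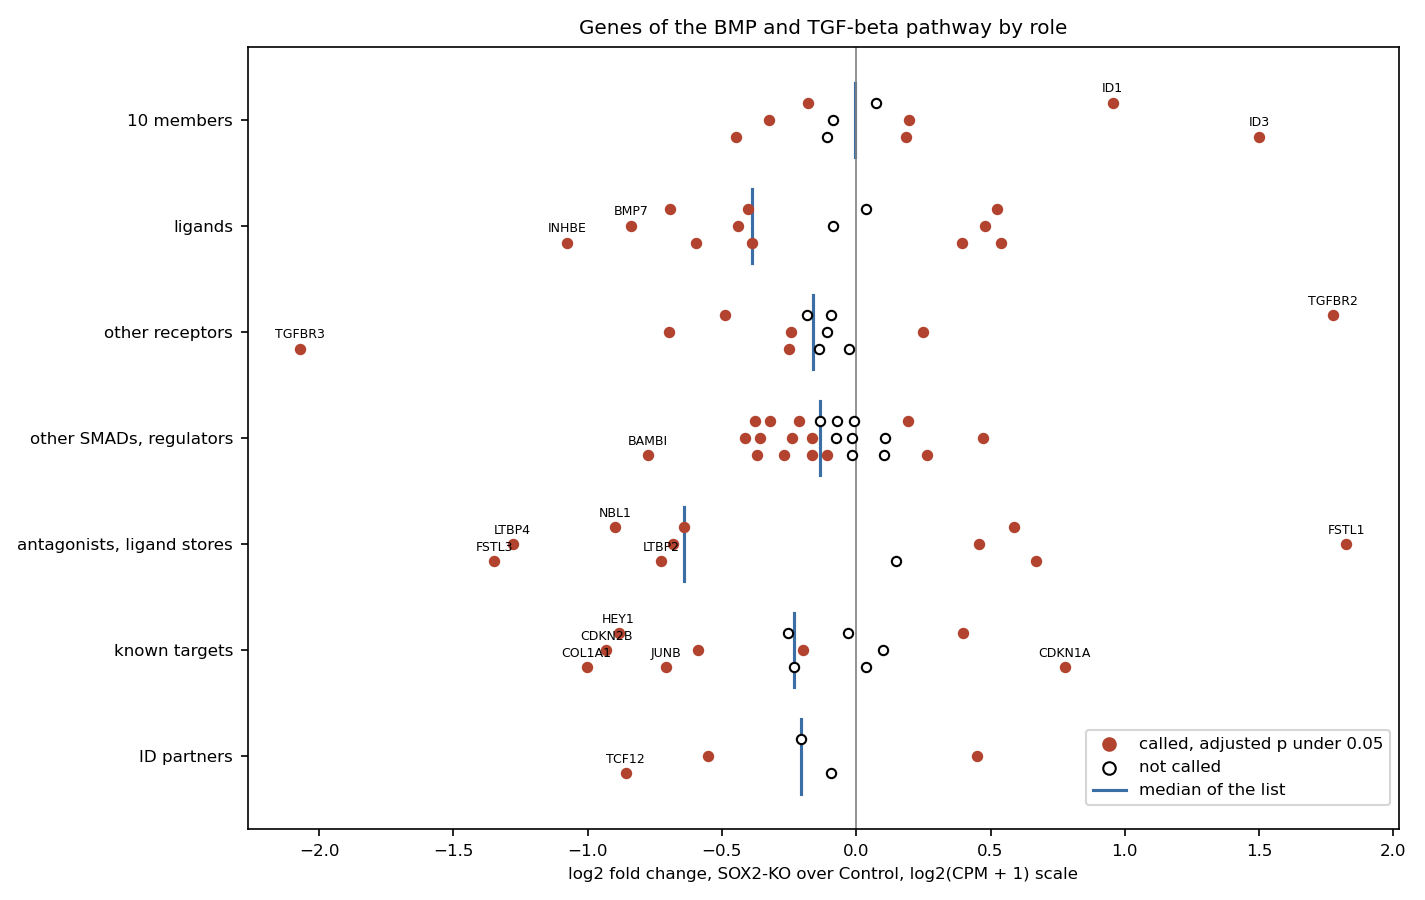
Log2 fold change (SOX2-KO over Control, log2(CPM + 1) scale, horizontal axis) of the 10 genes and of the tested genes of 6 pathway lists, 1 row per list; filled points were called, open points were not, and the vertical bar is the list's median. TGFBR2 and FSTL1 lay at 1.77 and 1.83, TGFBR3 at -2.07.

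Of 24 other SMADs, SMAD partners and regulators, 23 were tested, of which 3 rose, 12 fell and 8 were not called (median log2 -0.13), beside 57.8% of all tested genes called and 32.9% lower. With the neighbours' shift subtracted 6 rose and 8 fell. SMAD1, a BMP receptor SMAD, was at 33.7, 36.2 and 37.0 CPM in SOX2-KO, against 30.3, 29.5 and 28.6 CPM in Control. SMAD1 rose without overlap (log2 0.27 ± 0.06; limma adjusted p = 0.00348). WWP1, a ubiquitin ligase that can act on SMADs and receptors, rose to 313 ± 7.73 CPM in SOX2-KO, against 225 ± 4.75 CPM in Control (log2 0.47; adjusted p = 1.03e-05). USP15, a deubiquitinase that acts on receptor SMADs and TGFBR1, fell to 69.7 ± 2.09 CPM in SOX2-KO, against 93.2 ± 1.24 CPM in Control (log2 -0.41; adjusted p = 3.37e-05), and was at -0.13 with its neighbours' shift subtracted. PMEPA1, a TGF-beta-induced inhibitor that is also an androgen-responsive gene, fell to 279 ± 6.51 CPM in SOX2-KO, against 348 ± 7.92 CPM in Control (log2 -0.32; adjusted p = 1.01e-04). The PMEPA1 call ended with the neighbours' shift of -0.27 subtracted (log2 -0.05; adjusted p = 0.273; between 6.12e-05 and 0.273 over the alternatives). USP9X (253 ± 13.4 CPM in SOX2-KO and 278 ± 12.9 CPM in Control) and FKBP1A, which binds type I receptors (120.4 ± 9.24 and 120.8 ± 3.65 CPM in the same groups), were not called. With the neighbours' shift subtracted FKBP1A was at log2 0.31 (adjusted p = 0.00434), and USP9X was called lower without SOX2-KO replicate 1 (adjusted p = 0.0319) or Control replicate 1 (0.0365).

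Antagonists and ligand stores outside the cell moved in both directions. LTBP1, LTBP2, LTBP3 and LTBP4, genes of the latent TGF-beta binding protein family of the matrix, all fell, and the first 3 were named after their values were seen (log2 -0.64, -0.73 and -0.68). Of 18 listed 11 were tested, of which 4 rose, 6 fell and 1, FST, was not called (6.43 ± 0.473 CPM in SOX2-KO and 5.697 ± 0.316 CPM in Control), beside 57.8% of all tested genes called, 25% higher and 32.9% lower. The counts were 4 and 6 with the neighbours' shift subtracted as well. LTBP4 was at 46.3, 44.4 and 44.4 CPM in SOX2-KO, against 121, 107 and 105 CPM in Control (log2 -1.28 ± 0.06; limma adjusted p = 5.44e-07). FSTL1, a secreted follistatin-like glycoprotein, was at 16.8, 15.8 and 15.9 CPM in SOX2-KO, against 3.75, 3.91 and 3.86 CPM in Control (log2 1.83 ± 0.08; adjusted p = 6.18e-07). FSTL3, an activin-binding follistatin-like protein, was at 2.10, 2.85 and 2.68 CPM in SOX2-KO, against 9.11, 7.38 and 7.53 CPM in Control (log2 -1.35 ± 0.13; adjusted p = 3.16e-05). In all 3 of these genes the groups were far apart. With their neighbours' shift subtracted LTBP4, FSTL1 and FSTL3 were at log2 -1.01, 1.79 and -1.02. TWSG1, a BMP-binding protein, rose to 42.6 ± 1.82 CPM in SOX2-KO, against 28.2 ± 3.47 CPM in Control (log2 0.59; adjusted p = 3.90e-04).

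Of 24 other known targets of TGF-beta or BMP 13 were tested, of which 2 rose, 6 fell and 5 were not called (median log2 -0.23), a share called near the 57.8% of all tested genes. With the neighbours' shift subtracted 2 rose and 7 fell. ID4, the remaining ID family gene and named after its values were seen, was at 195, 205 and 204 CPM in SOX2-KO, against 234, 228 and 231 CPM in Control (log2 -0.20 ± 0.04; limma adjusted p = 0.00158). With its neighbours' shift subtracted ID4 was at log2 -0.33. JUNB, an AP-1 gene, fell to 24.7 ± 1.83 CPM in SOX2-KO, against 41.03 ± 2.27 CPM in Control (log2 -0.71, or -0.42 with its neighbours' shift subtracted; adjusted p = 3.21e-05), and COL1A1, the collagen I gene, to 1.93 ± 0.233 CPM in SOX2-KO, against 4.86 ± 0.0942 CPM in Control (log2 -1.004; adjusted p = 9.11e-05). CDKN1A, the p21 gene, rose to 63.4, 104 and 88.3 CPM in SOX2-KO, against 48.7, 46.6 and 49.7 CPM in Control (log2 0.78 ± 0.15; adjusted p = 0.00161). HES1, also a NOTCH target, rose to 20.4 ± 0.941 CPM in SOX2-KO, against 15.2 ± 0.942 CPM in Control (log2 0.40, or 0.96 with its neighbours' shift subtracted; adjusted p = 0.00152). KLF10 (79.9 ± 1.19 CPM in SOX2-KO and 77.9 ± 1.95 CPM in Control) and FN1 (76.5 ± 2.285 and 71.3 ± 0.352 CPM in the same groups) were not called, though FN1 was with median-ratio scaling (log2 0.16; adjusted p = 0.0187) and quantile normalisation (0.15; 0.011).

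Of the helix-loop-helix proteins that ID proteins can bind, the E protein genes TCF3 and TCF12 fell and TCF4 rose. TCF12 was at 131, 136 and 129 CPM in SOX2-KO, against 234, 242 and 244 CPM in Control (log2 -0.86 ± 0.04; limma adjusted p = 5.44e-07). TCF3, which encodes E12 and E47, was at 96.5, 99.7 and 96.1 CPM in SOX2-KO, against 154, 139 and 137 CPM in Control (log2 -0.55 ± 0.05; adjusted p = 2.31e-05). TCF4 was at 40.2, 36.7 and 34.7 CPM in SOX2-KO, against 24.8, 27.9 and 28.1 CPM in Control (log2 0.45 ± 0.07; adjusted p = 7.39e-04). None of the 3 E protein genes overlapped between the groups, beside 64.5% of all tested genes without overlap. TCF12 lies on chromosome 15 and its neighbours were shifted by -0.37, and with that subtracted TCF12 was at log2 -0.48 (adjusted p = 1.97e-05) and TCF3 at -0.24 (0.00133). TWIST1 (15.5 ± 0.245 CPM in SOX2-KO and 18.1 ± 1.88 CPM in Control) and LYL1 (1.48 ± 0.134 and 1.65 ± 0.279 CPM in the same groups) were not called, although TWIST1 was at log2 -0.47 (adjusted p = 0.00299) with its neighbours' shift subtracted. These 5 were the tested genes of 11 listed: 1 rose, 2 fell and 2 were not called, beside 57.8% of all tested genes called. The counts were 1 and 3 with the neighbours' shift subtracted.

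Across the 6 libraries the protein-coding genes most like ID1, by Pearson's r of log2(CPM + 1) among 10936 genes averaging 5 CPM or more, were PPP2R5D (r = 0.999), TOMM34 (0.998) and KLK2 (0.998). Those most like ID3 were FSTL1 (0.9996), LDHB (0.999) and THNSL1 (0.999). With 3 libraries in each group such values mostly reflect the difference between the groups, and 21.2% of the genes compared had r over 0.9 with ID1 and 23.1% with ID3. As FSTL1 was picked by its r with ID3, a shared direction and a like spread within groups follow from that choice. ID1 and ID3 had r = 0.983 with each other and -0.994 and -0.996 with SMAD3.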

How the data were processed

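The deposited table holds CPM per Ensembl gene, made by the authors; each column sums to 1000000. Builds hg38 and GRCh38.p12 and the tools edgeR 3.22.2, kallisto 0.43.1, Trimmomatic 0.38 and STAR appear, without roles, in the submitters' processing notes. The sources used here give neither gene selection nor use of strand. Low values gave the step of 1 read and so the estimated reads, but only 14.2% to 23.3% of values were whole within 0.001 of a read, so no count model was used. A level of 3 reads covers counting error only. Names came from a gene name table and coordinates from GENCODE 29 (16010 identifiers).

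limma 3.58.1 in R 4.3.3, with a trended prior and group as the only term, was fitted to log2(CPM + 1) and tried on simulated counts. Those counts had the same dispersion for every gene, set beforehand and not estimated from these libraries. The trial therefore does not measure error rates here. Python 3.11.15 and SciPy 1.17.1 gave the exact permutation test. All pairs of replicates differed beyond sampling noise (median chi-square per gene 0.849 to 1.84, against 0.455 for noise). The members and lists were chosen with earlier results of these data known; members of each list were named by smallest p among called genes and highest mean among the others. Alternatives were 2 pseudocounts, 2 filters, 2 scalings, a replicate block, subtraction of the median shift of genes within 5 Mb, and leaving out each library.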

Additional observations from a re-analysis of the deposited data

How the results depend on the processing

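ID1, ID3, SMAD4 and SOX2 kept their direction and call under every alternative run (ID1 log2 0.90 to 1.16, ID3 1.47 to 1.61, SMAD4 -0.38 to -0.12). The SMAD4 call was close to the threshold with median-ratio scaling (log2 -0.12, limma adjusted p = 0.04635). Calls over all genes numbered 9210, and 8083 to 9402 under the alternatives. With the chromosomal neighbourhood subtracted 4 members were called, 2 of them higher; ID2 turned to -0.15 and TGFBR1 to 0.14, SMAD2 (0.0520), SMAD3 (-0.18) and SMAD6 (-0.0504) lost their calls, and SMAD7 (-0.30) gained one. Among other named genes, AMH (0.22), RGMB (0.19), USP9X (0.0576), FKBP1A (0.31), KLF10 (-0.0810) and LYL1 (0.21) then changed sign. SMAD6 also lost its call with median-ratio scaling (-0.27) and quantile normalisation (-0.25), under which RGMB (0.0308 and 0.0266) and FKBP1A (0.0511 and 0.0312) changed sign. The cause was not tested. With the replicate number as a block, 8727 genes were called and ID2 (log2 0.20, limma adjusted p = 0.0711) lost its call; the numbers did not pair the libraries (correlations of same-numbered deviations -0.045, 0.038 and -0.014). Leaving out a library gave 0.15 to 0.26 for ID2, -0.38 to -0.24 for SMAD6, -0.25 to 0.0597 for AMH, -0.0603 to 0.11 for TGFB2 and -0.0677 to 0.0346 for FKBP1A. SMAD6 and SMAD7 rested on an estimated 135 reads in their lowest library and ID3 on 147. TGFB1 and FSTL1 rested on 80, TGFBR2 and FSTL3 on 46, COL1A1 on 37, LYL1 on 29 and TGFB2 on 26.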
